A study of Mus musculus with 4 samples.

Results

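The genes of mRNA deadenylation and decay were examined in mouse morulae in which Nr1h2 had been knocked down. Genes were chosen by symbol, from the subunits of the CCR4-NOT and PAN2-PAN3 deadenylases to the decapping, exosome, nonsense-mediated decay and small RNA silencing factors, and 72 of the 13658 genes per the authors' deposited table matched. Of these, 69 belong to the decay machinery. The other 3 (Zfp362, Zfp365 and Zfp367) matched only because their symbols begin like Zfp36, encode zinc finger proteins of other kinds, and are counted as members but described apart. Btg4, Dcp1b and Zfp36l3, whose symbols also fit the choice, had no row under these symbols.

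The samples were wild-type mouse embryos injected at the 1-cell stage with 4 to 5 pL of 100 µM siRNA and cultured to the morula, the ball of cells that precedes the blastocyst. The siNr1h2 group (2 samples) received a pool of siRNAs against Nr1h2, the gene of the oxysterol receptor LXRβ, and the siNT group (2 samples) a non-targeting pool. Polyadenylated RNA was sequenced, and neither the number of embryos per sample nor the origin of the replicates is labelled, so p-values measure only the spread between these samples, which may be technical. The authors' deposited table gives a mean over all samples and a fold change for each gene, and no value per sample.

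A polyadenylated mRNA usually begins to decay when its tail is shortened, first by the PAN2-PAN3 enzyme and then by CCR4-NOT, a large complex that carries a pair of nucleases. The shortened mRNA then loses its cap and is digested from the 5′ end by XRN1, or is digested from the 3′ end by the exosome. RNA-binding proteins such as the Zfp36 and Pumilio families, the Argonaute proteins loaded with microRNAs, and the BTG and Tob adaptors help select the mRNAs that the deadenylases reach. In mammalian embryos this machinery is known for clearing maternal mRNAs around the activation of the embryonic genome.

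Knockdown of the target was visible, since siNr1h2 morulae had 5.03 times less Nr1h2 than siNT morulae per the authors' deposited table (95% interval 3.89 to 6.50). Markers of the morula fixed for this check were all present, 12 of 12, with mean normalized counts between 90.8 and 15084, and 1 of them, the keratin gene Krt8, was called lower (log2 ratio of siNr1h2 over siNT -0.50 ± 0.14 per the authors' deposited table). Dppa2 (log2 ratio -0.37) and Krt18 (-0.27) were also lower, and Pou5f1 (0.43) higher, by an unadjusted p under 0.05 per the authors' deposited table. Of 10 oocyte markers, 8 had a row and none a mean above 78.1. Of 10 cumulus and granulosa cell markers, 3 had a row, with means up to 29.6, and none of 6 sperm markers had a row. Of the oocyte markers 6 and of the cumulus markers 1 had an adjusted p, and none of these passed the test. By an unadjusted p under 0.05, the oocyte markers Bmp15 (log2 ratio -1.42) and Zp3 (-0.73) were lower per the authors' deposited table. The log2 ratios of all rows ran from -1.42 to 0.99 for the oocyte and from -1.56 to -0.74 for the cumulus markers, and their part in the results below was not tested. In bulk samples fewer cells of a type and less RNA per cell cannot be told apart.

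Btg1 and Zfp36l2 were lower in siNr1h2 than in siNT morulae, and no other gene of the decay machinery passed the test. Both encode proteins that bring the CCR4-NOT deadenylase to mRNAs, Btg1 as an adaptor that contacts its catalytic subunits and Zfp36l2 as a zinc finger protein that binds AU-rich elements. All 72 members had an adjusted p per the authors' deposited table. At an adjusted p under 0.05 (DESeq2's Wald test with Benjamini-Hochberg adjustment, as deposited), 2 members were lower, 0 higher and 70 did not pass. The called share was 2.78% of members against 1.98% of all 12069 genes with an adjusted p (1.52% lower and 0.456% higher), so the count of called members was close to the background. By an unadjusted p under 0.05, 9 members were lower and 4 higher, which is 18.1% of members against 13.3% of all genes (7.31% lower and 5.97% higher).

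The split of all called genes, 184 lower and 55 higher per the authors' deposited table, depended on the scaling. Centring on the genes with means of at least 500, whose median log2 ratio was -0.038, gave 142 lower and 82 higher genes. Centring on 76 ribosomal protein genes, whose median log2 ratio was 0.11, gave 454 lower and 36 higher. Btg1 and Zfp36l2 were called lower under each of these scalings. Across all members the log2 ratios had a median of -0.067, with 42 members below 0 and 30 above, beside a median of 0.0042 (5961 below 0 and 6108 above) over all genes with an adjusted p per the authors' deposited table.

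**Figure D1:**
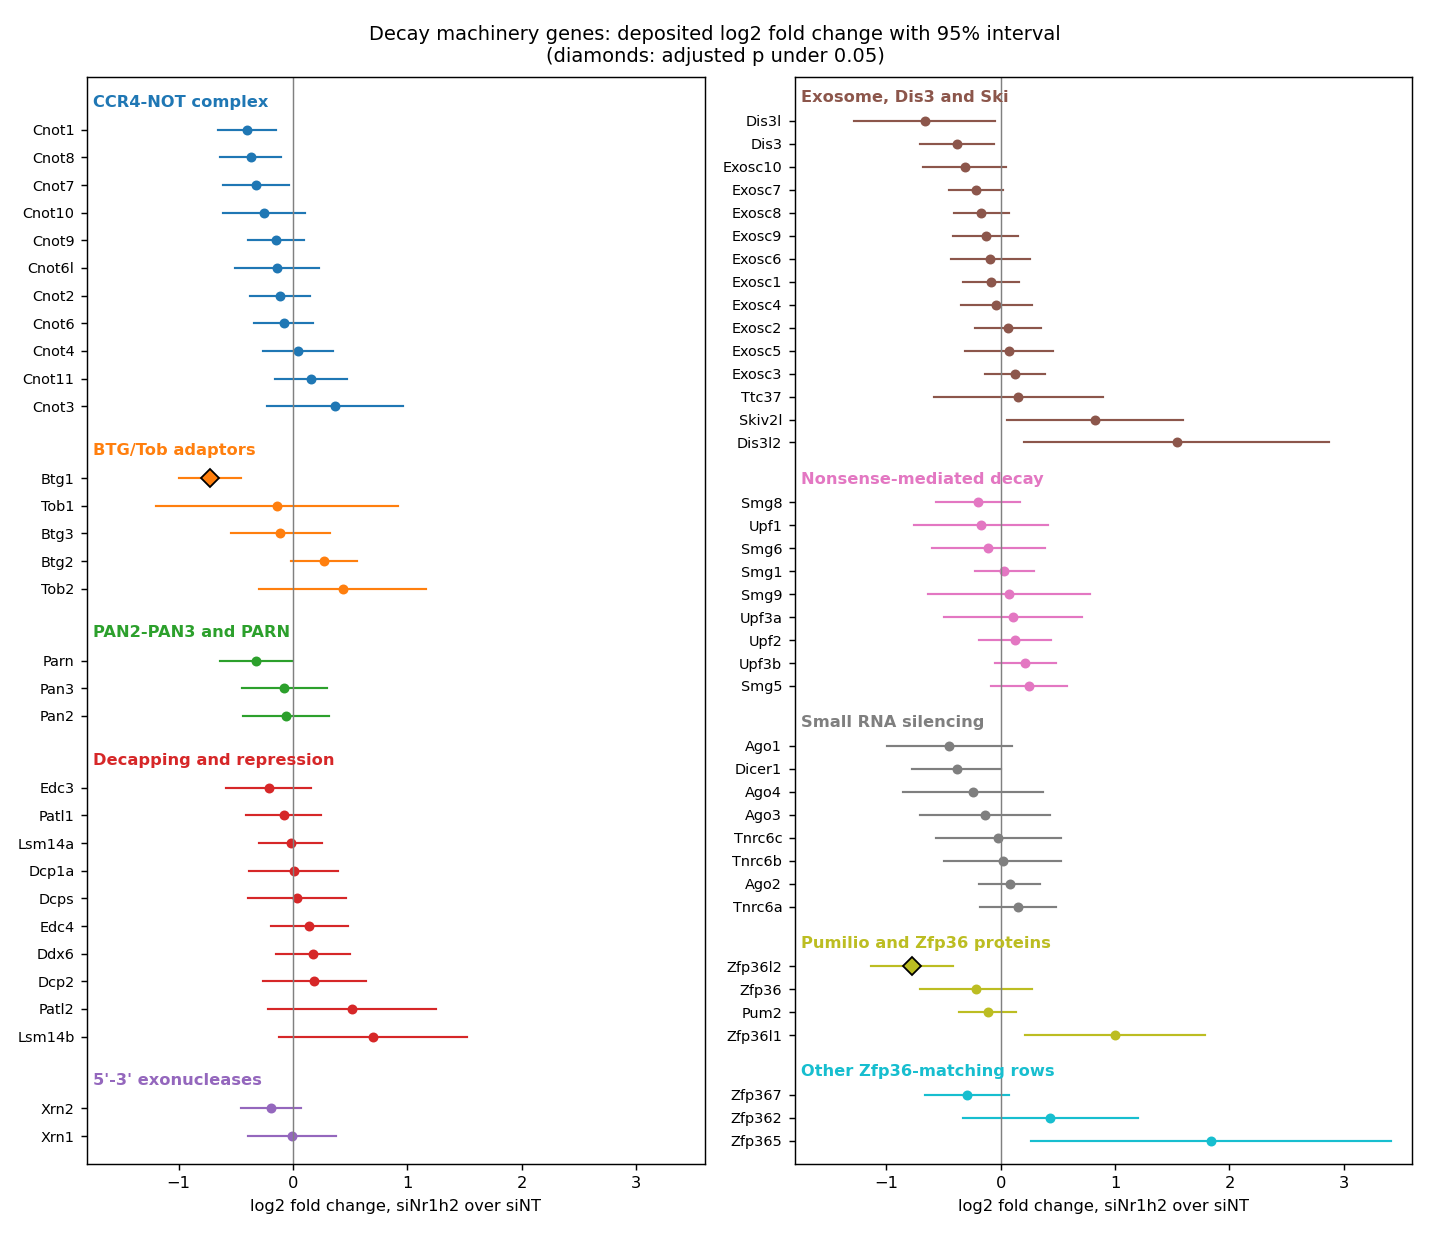
Deposited log2 fold change of siNr1h2 over siNT for 70 of the 72 genes, by functional group, with bars for the 95% interval (1.96 standard errors). Diamonds mark Btg1 and Zfp36l2, the 2 genes with an adjusted p under 0.05, both left of 0, and the intervals of most other genes span 0.

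Btg1 encodes an antiproliferative protein of the BTG family that binds the CCR4-NOT nucleases and stimulates deadenylation. Per the authors' deposited table it fell in siNr1h2 morulae by a factor of 1.65 (adjusted p = 4.97e-05, 95% interval 1.37 to 2.00), at a log2 ratio of -0.73 ± 0.14 (SE). The mean normalized count of 2324 and this fold correspond to about 1752 counts in siNr1h2 and 2896 in siNT morulae, if the group means are taken to average to the deposited mean. Its level in siNr1h2 morulae was thus 60.5% of that in siNT morulae (95% interval 50.1% to 73.0%). Among the adaptors Btg1 was the 1 called gene. Btg2, a related adaptor known as a p53 target, had a log2 ratio of 0.27 ± 0.15 (adjusted p = 0.421) and Btg3 of -0.11 ± 0.22 (adjusted p = 0.890) per the authors' deposited table. The Tob proteins, which carry a BTG domain and also bind the poly(A)-binding protein, had log2 ratios of -0.14 ± 0.54 for Tob1 and 0.43 ± 0.37 for Tob2 per the authors' deposited table. The interval of Tob1, from 2.30 times lower to 1.89 times higher, was wide for a gene with a mean normalized count of 144. The difference between Btg1 and its relatives was not tested, because no values per sample were at hand.

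The promoter of Btg1 is shown because this member had the smallest p and the knockdown lowers the mRNA of a nuclear receptor. The window runs from 250 bases before to 50 bases after the transcription start in RefSeq (GRCm38.p6, chr10:96616751-96617050, plus strand). Capitals mark a TATA box (TATAAA, searched on the forward strand) and an inverted CCAAT box (ATTGG, searched on both strands as CCAAT).
Btg1 promoter: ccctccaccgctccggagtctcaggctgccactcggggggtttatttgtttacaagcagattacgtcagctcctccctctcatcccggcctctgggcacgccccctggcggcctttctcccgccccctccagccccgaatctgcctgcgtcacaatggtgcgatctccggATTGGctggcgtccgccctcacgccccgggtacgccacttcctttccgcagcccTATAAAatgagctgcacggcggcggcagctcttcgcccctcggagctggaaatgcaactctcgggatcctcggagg
The TATA box begins at position -26 and the inverted CCAAT box at position -80 from the start. TATAAA was found in 8.32% and a CCAAT box in 37.4% of all 32851 promoters of the table. The nuclear receptor hexamer AGGTCA, searched on both strands, was not in these letters. It was found in 16.3% of all promoters and in 9 of 74 promoters of the 60 members that the table holds. Zfp36l2 is not among those 60.

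Zfp36l2 encodes an RNA-binding protein of the tristetraprolin family that recruits CCR4-NOT to mRNAs with AU-rich elements, and in mouse it is required in the oocyte for a competent egg. Per the authors' deposited table siNr1h2 morulae had 1.71 times less of its mRNA than siNT morulae (adjusted p = 0.00387, 95% interval 1.33 to 2.19), at a log2 ratio of -0.77 ± 0.18 (SE). With a mean normalized count of 330, this corresponds to about 244 counts in siNr1h2 and 417 in siNT morulae under the same assumption. The level in siNr1h2 morulae was 58.5% of that in siNT morulae (95% interval 45.6% to 75.0%). Under Holm adjustment Zfp36l2 did not pass (adjusted p = 0.288), while Btg1 still did.

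The relatives of Zfp36l2 did not pass. Zfp36l1, which encodes a closely related ARE-binding protein, had a log2 ratio of 1.00 ± 0.40 per the authors' deposited table (adjusted p = 0.214), at a mean normalized count of 51.3. Its interval ran from 1.16 to 3.45 times higher, so it lay on the other side of 0 from that of Zfp36l2. Zfp36, the gene of tristetraprolin itself, stood at -0.22 ± 0.25 (adjusted p = 0.778) per the authors' deposited table. Per kb of transcript, the mean normalized count was 93.6 for Zfp36l2, 57.6 for Zfp36 and 17.2 for Zfp36l1, so the called gene was also the most abundant of the 3. The table gives no spread over samples for these levels, so the order carries no error. Pum2, a Pumilio gene whose protein binds a different element and represses mRNAs through CCR4-NOT, had a log2 ratio of -0.11 ± 0.13 per the authors' deposited table, with an interval from 1.29 times lower to 1.10 times higher.

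A site for the Zfp36 family occurs in the transcript of the called gene Zfp36l2 itself, and is shown for that reason. The sequence comes from a GENCODE M21 transcript (GRCm38) and lies in its 3′ untranslated region, with the AU-rich nonamer TTATTTATT in capitals. Transcripts were searched for this nonamer and for the Pumilio element TGTANATA on the transcript strand, and overlapping matches were counted.
Zfp36l2, AU-rich nonamer: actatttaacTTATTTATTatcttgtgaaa
The Zfp36l2 site (chr17:84184913-84184942, minus strand) begins 821 bases after the stop codon in a 3′ untranslated region of 1822 bases. All 3 Zfp36-family members carried the nonamer, as did Cnot6l, Edc3, Xrn1, Ago2, Ago3 and Zfp365, in all 9 of 72 members (12.5%, against 7.84% of all genes with a 3′ untranslated region). A Pumilio element was present in 25 members (34.7%, against 25.7%), Pum2 among them. The 3′ untranslated regions of members were longer, with a median of 1390 bases against 1072 over all genes.

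The CCR4-NOT complex had no called gene among 11, and 8 of the 11 lay below 0, with a median log2 ratio of -0.14 per the authors' deposited table. Cnot1 encodes the scaffold on which the complex is built, and came nearest to the threshold. It was 1.32 times lower (95% interval 1.11 to 1.58, log2 ratio -0.40 ± 0.13, adjusted p = 0.0734) per the authors' deposited table, at a mean normalized count of 3499. The CAF1 nucleases, which are alternatives for 1 position of the complex, stood close to each other. Cnot8 had a log2 ratio of -0.37 ± 0.14 (1.29 times lower, 1.07 to 1.56, adjusted p = 0.150) and Cnot7 of -0.32 ± 0.15 (1.25 times lower, 1.03 to 1.53, adjusted p = 0.299) per the authors' deposited table. The CCR4-type nucleases Cnot6 and Cnot6l stood at -0.08 ± 0.13 and -0.14 ± 0.19 per the authors' deposited table, both turning above 0 (0.044 and 0.011) when the trend of log2 ratios over transcript length and GC content was taken out. Centred on ribosomal protein genes, Cnot1 (-0.51, adjusted p = 0.00580) and Cnot8 (-0.48, adjusted p = 0.0182) were called lower. Centred on the genes with means of at least 500 they had adjusted p of 0.131 (Cnot1) and 0.233 (Cnot8), and with the trend removed 0.128 and 0.218, so neither passed.

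None of the other subunits had an unadjusted p under 0.05. Cnot2 and Cnot3, which form the NOT module with Cnot1, stood at -0.11 ± 0.13 and 0.36 ± 0.30 per the authors' deposited table. Cnot9, which docks RNA-binding proteins and GW182 proteins, stood at -0.15 ± 0.12, and the partners Cnot10 and Cnot11 at -0.25 ± 0.18 and 0.16 ± 0.16 per the authors' deposited table. Cnot4, a ubiquitin ligase that associates with the complex, had a log2 ratio of 0.04 ± 0.16 per the authors' deposited table, and -0.065 when centred on ribosomal protein genes. All 11 intervals lay within a change of 2 times in either direction, and 6 of the 11 within 1.5 times. In mean normalized count per kb, Cnot8 (764) stood above Cnot7 (442), and Cnot6 (272) above Cnot6l (33.97).

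None of the 3 other deadenylase genes passed. Parn, a cap-binding poly(A) ribonuclease, had a log2 ratio of -0.32 ± 0.16 (1.25 times lower, 95% interval 1.01 to 1.56, adjusted p = 0.360) per the authors' deposited table. Pan2, the nuclease, and Pan3, its poly(A)-binding partner, stood at -0.06 ± 0.19 and -0.08 ± 0.19 per the authors' deposited table. Their intervals reached no further than 1.35 and 1.36 times lower, or 1.24 and 1.23 times higher.

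Decapping and translational repression had no called gene among 10, and none had an unadjusted p under 0.05. Dcp2, the decapping enzyme, had a log2 ratio of 0.19 ± 0.23 and Dcp1a, its activator, of 0.01 ± 0.20 per the authors' deposited table (-0.10 for Dcp1a when centred on ribosomal protein genes). The scaffold and enhancer genes Edc4 and Edc3 stood at 0.14 ± 0.17 and -0.21 ± 0.19, and the helicase gene Ddx6 at 0.17 ± 0.17, per the authors' deposited table. Dcps, which degrades the cap left by 3′ decay, stood at 0.03 ± 0.22 per the authors' deposited table, and changed sign under centring on ribosomal protein genes (-0.074) and with the length and GC trend removed (-0.0021). Of the paralogous pairs, the less abundant gene had the higher point estimate in each. Patl2 stood at 0.52 ± 0.38 and Patl1 at -0.08 ± 0.17, and Lsm14b, with the smallest p of the group, at 0.70 ± 0.42 (adjusted p = 0.477) and Lsm14a at -0.02 ± 0.14, per the authors' deposited table. Lsm14a, the most abundant gene of the group by mean normalized count (1272), turned above 0 when centred on the genes with means of at least 500 (0.017) or with the trend removed (0.028). Per kb, the mean normalized count was 22.1 for Patl2 against 105 for Patl1, and 17.5 for Lsm14b against 432 for Lsm14a.

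The 5′ to 3′ exonucleases did not pass. Xrn2, the nuclear enzyme, had a log2 ratio of -0.20 ± 0.13 (adjusted p = 0.560) and Xrn1, the cytoplasmic one, of -0.01 ± 0.19 (adjusted p = 0.992) per the authors' deposited table. Xrn1 turned above 0 when centred on the genes with means of at least 500 (0.029) and with the length and GC trend removed (0.071). The interval of Xrn1 ran from 1.31 times lower to 1.29 times higher.

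The exosome had no called gene among its 10 Exosc genes, and their intervals were narrow, with 9 of 10 inside a change of 1.5 times in either direction. The core of the exosome is a ring of inactive subunits with a cap of RNA-binding proteins, to which the nucleases attach. The ring genes Exosc7 and Exosc8 were the most abundant members per kb, with mean normalized counts of 3946 for Exosc7 and 2891 for Exosc8. Their log2 ratios were -0.22 ± 0.12 (Exosc7, adjusted p = 0.441) and -0.17 ± 0.12 (Exosc8, adjusted p = 0.584) per the authors' deposited table. The ring genes Exosc9, Exosc6, Exosc4 and Exosc5 and the cap genes Exosc1, Exosc2 and Exosc3 had log2 ratios between -0.13 and 0.12. Exosc2 (-0.045) and Exosc5 (-0.035) lay below 0 when centred on ribosomal protein genes, and Exosc5 (-0.0016) also with the trend removed. Exosc10, a nuclear exonuclease of the exosome, stood at -0.32 ± 0.18 (adjusted p = 0.458) per the authors' deposited table.

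The Dis3 nucleases stood on both sides of 0, and none passed. Dis3, the processive nuclease of the nuclear exosome, was 1.30 times lower (95% interval 1.04 to 1.63, adjusted p = 0.276) per the authors' deposited table. Dis3l, its cytoplasmic counterpart, was 1.59 times lower (1.04 to 2.43, adjusted p = 0.325), at a mean normalized count of 82.1, per the authors' deposited table. Dis3l2, which degrades uridylated RNA without the exosome, had a log2 ratio of 1.54 ± 0.68 (adjusted p = 0.283) per the authors' deposited table. Its mean normalized count was 16.8, and its interval ran from 1.15 to 7.32 times higher. Of the Ski complex, which feeds cytoplasmic mRNA into the exosome, the helicase gene Skiv2l stood at 0.82 ± 0.39 (1.77 times higher, 1.04 to 3.01, adjusted p = 0.337) and the scaffold gene Ttc37 at 0.15 ± 0.38 per the authors' deposited table.

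Nonsense-mediated decay, which removes mRNAs with premature stop codons, had no called gene and no unadjusted p under 0.05 among 10 genes. All 10 intervals lay within a change of 2 times in either direction. The central helicase gene Upf1 had a log2 ratio of -0.17 ± 0.30 and its kinase gene Smg1 of 0.03 ± 0.13 per the authors' deposited table. The bridging factors Upf2, Upf3a and Upf3b stood at 0.12 ± 0.16, 0.10 ± 0.31 and 0.22 ± 0.14 (adjusted p = 0.519 for Upf3b, the smallest p) per the authors' deposited table. Smg6, the endonuclease, stood at -0.11 ± 0.25, and Smg5, which binds phosphorylated Upf1, at 0.25 ± 0.17 per the authors' deposited table. The regulators of the kinase, Smg8 and Smg9, stood at -0.20 ± 0.19 and 0.07 ± 0.36. The signs of Smg1 (-0.077), Smg9 (-0.037) and Upf3a (-0.0047) changed when centred on ribosomal protein genes, and that of Smg9 (-0.091) with the length and GC trend removed. Smg1 had the highest mean normalized count of the group (1168), and Upf3b the highest per kb (421).

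Small RNA silencing had no called gene among 8. Dicer1, whose product cuts microRNA precursors and endogenous siRNAs, was 1.31 times lower (adjusted p = 0.376, 95% interval 1.00 to 1.71) per the authors' deposited table. Ago2, the Argonaute with slicing activity, had the highest mean normalized count of the group (995) and a log2 ratio of 0.08 ± 0.14 (adjusted p = 0.871) per the authors' deposited table. Ago1, Ago3 and Ago4 stood at -0.45 ± 0.28, -0.14 ± 0.29 and -0.24 ± 0.31 per the authors' deposited table. The GW182 genes, whose proteins link Argonautes to CCR4-NOT, stood at 0.15 ± 0.17 for Tnrc6a, 0.02 ± 0.26 for Tnrc6b and -0.02 ± 0.28 for Tnrc6c per the authors' deposited table. Centred on ribosomal protein genes, Ago2 (-0.031) and Tnrc6b (-0.093) lay below 0, and centred on the genes with means of at least 500 Tnrc6c (0.017) lay above it. Per kb, the mean normalized count of Ago2 (72.1) was above those of the other Argonautes (8.12 to 14.7), and that of Tnrc6a (58.1) above those of Tnrc6c (12.9) and Tnrc6b (7.01).

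**Figure D2:**
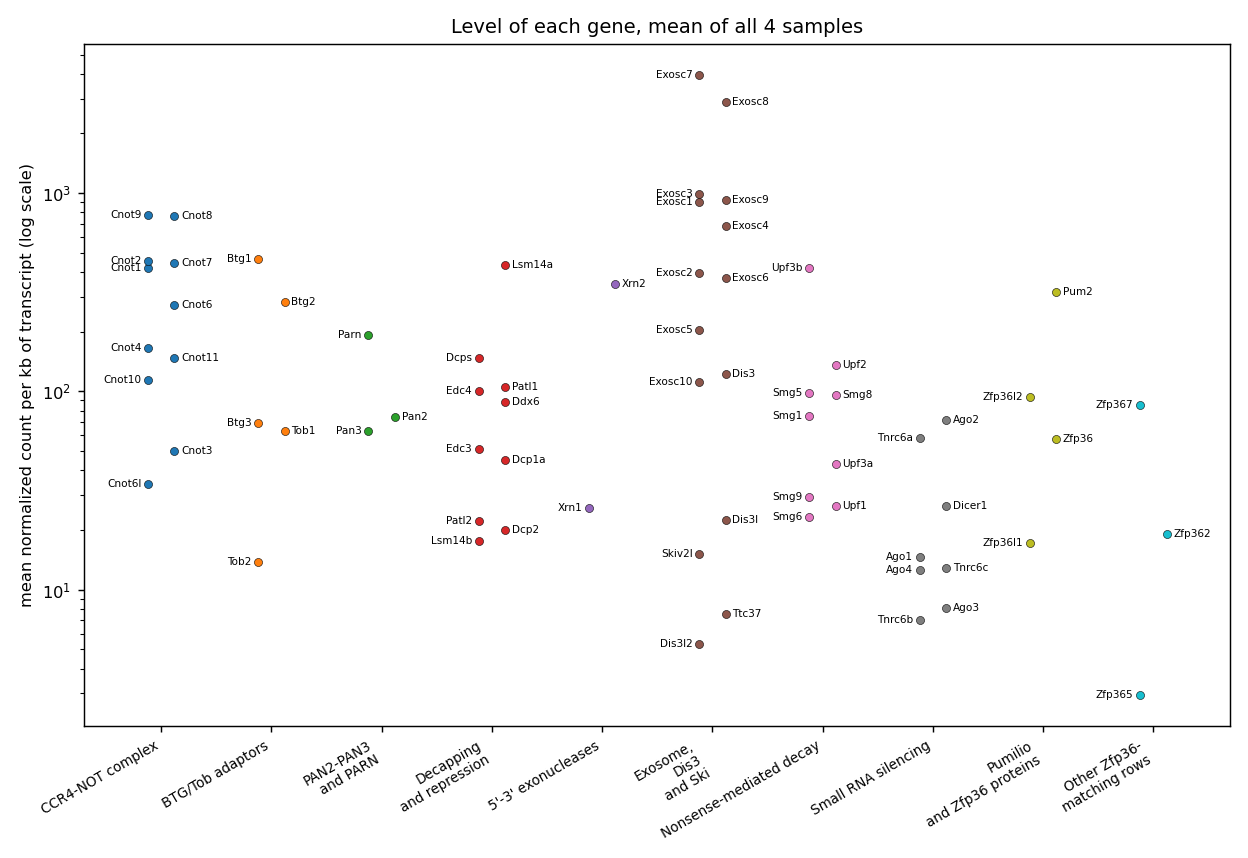
Mean normalized count over all 4 samples per kb of the longest coding transcript (log scale) for 70 of the 72 genes, by functional group. Exosome ring genes Exosc7 and Exosc8 are highest, and in each of the Xrn, Lsm14, Patl, Ago, Tnrc6 and Cnot6 families 1 gene stands above the others.

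The 3 zinc finger genes outside the decay machinery did not pass. Zfp362 had a log2 ratio of 0.43 ± 0.39, Zfp365 of 1.84 ± 0.80 (adjusted p = 0.276, mean normalized count 12.5) and Zfp367 of -0.30 ± 0.19 per the authors' deposited table. Without these 3 the median of the 69 other members was -0.073.

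Members with means under 100 lay mostly above 0, unlike those with means of at least 500. Members between these levels were not summarized apart, and over all 72 members 42 lay below 0 and 30 above. Of 29 members whose mean normalized count was at least 500, 19 lay below 0 and 10 above, with a median log2 ratio of -0.083. Over all 3755 genes at that level, 57.9% lay below 0 and the median was -0.038. Of 13 members with a mean under 100, 2 lay below 0 and 11 above, with a median of 0.43, beside 45.2% below 0 and a median of 0.068 over 4420 genes. Each of the 4 members above 0 with an unadjusted p under 0.05 (Dis3l2, Skiv2l, Zfp36l1 and Zfp365) had a mean normalized count under 100. Precision differed in the same way, since 29 of 29 members at the higher level but 4 of 13 at the lower one had an interval within a change of 2 times in either direction. Over all members this was 61 of 72 (84.7%), against 68.0% of all genes with an adjusted p.

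**Figure D3:**
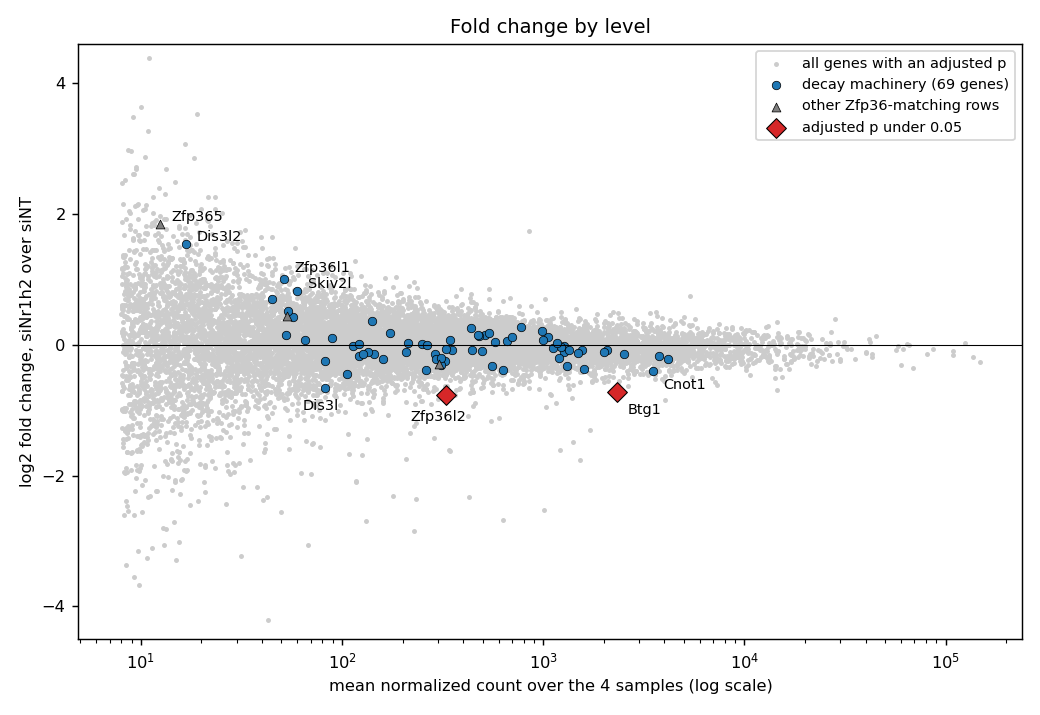
Deposited log2 fold change of siNr1h2 over siNT against the mean normalized count over the 4 samples (log scale) for the 12069 genes with an adjusted p (grey), the 69 genes of the decay machinery (blue) and the 3 other matching rows (triangles). The called genes Btg1 and Zfp36l2 (red diamonds) lie at the lower edge of the cloud, and 11 of the 13 members with means under 100 lie above 0.

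Other genes of the pathway that were listed for comparison gave 1 call among 87 genes with a row, of which 83 had an adjusted p. Over all 12069 genes with an adjusted p, 1.98% were called, so a short list is likely to hold no call. Zc3h12c, which encodes a Regnase-family endoribonuclease, fell in siNr1h2 morulae by a factor of 1.60 per the authors' deposited table (log2 ratio -0.68 ± 0.17, adjusted p = 0.00782, 95% interval 1.27 to 2.01). The 17 other regulators of mRNA stability in its list, among them Elavl1, Ybx1 and Ythdf2, did not pass. None was called among 9 other deadenylases and associated proteins (7 with an adjusted p), 7 genes of poly(A) binding (6), 11 of tail extension and uridylation (10) and 8 LSM genes. Nor was any of 7 other decapping enzymes and cofactors, 11 exosome cofactors, 11 exon junction and nonsense-mediated decay cofactors or 5 microRNA biogenesis genes. The smallest p in these lists belonged to Tent5c, a poly(A) polymerase gene, at 0.56 ± 0.21 (adjusted p = 0.155) per the authors' deposited table. The list medians lay between -0.14 for poly(A) binding and 0.10 for other deadenylases and associated proteins. Over all genes with an adjusted p the median was 0.0042. Of the LSM list, which includes the ring that binds deadenylated ends ahead of decapping, 7 of 8 genes lay above 0. Its median of 0.075 was below the median of 0.11 of the ribosomal protein genes. The smallest p of the other lists belonged to Tnks1bp1 (1.14 ± 0.53), Pabpn1 (0.25 ± 0.13), Lsm6 (0.15 ± 0.14), Pnrc2 (0.46 ± 0.19), Zcchc7 (0.58 ± 0.25), Casc3 (0.34 ± 0.15) and Prkra (-0.60 ± 0.43), as log2 ratios per the authors' deposited table.

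Genes were also grouped by whether their transcripts carry sites for the Zfp36 and Pumilio proteins. Of 11507 genes with an adjusted p and a 3′ untranslated region, 902 carried 1 or more AU-rich nonamers. Their median log2 ratio was -0.018 (13 lower and 4 higher called, 1.44% and 0.443%), against 0.0049 for 10605 genes with none (1.46% and 0.443%). The 2960 genes with a Pumilio element had a median of -0.029 (41 lower and 2 higher called, 1.39% and 0.0676%), against 0.014 for 8547 genes with none (1.49% and 0.573%). By an unadjusted p under 0.05, 841 of the 11507 genes were lower and 674 higher. Of the 2960 genes with the Pumilio element 250 were lower and 126 higher, and of the 8547 with none 591 were lower and 548 higher. These sets differ in size, so their counts cannot be compared directly. Of 902 genes with 2 or more Pumilio elements, 84 were lower and 33 higher by that measure. For the nonamer the counts were 69 lower and 41 higher of 902 genes, and 772 lower and 633 higher of the 10605 genes with none. Genes with a Pumilio element thus had a smaller share of higher calls, with medians within 0.05 on the log2 scale, and none of these differences was tested. The 3′ untranslated regions of the carriers were longer, with a median of 2335 bases against 992 for the nonamer and 2132 against 821 for the Pumilio element, and the part of length in these values was not tested.

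**Figure D4:**
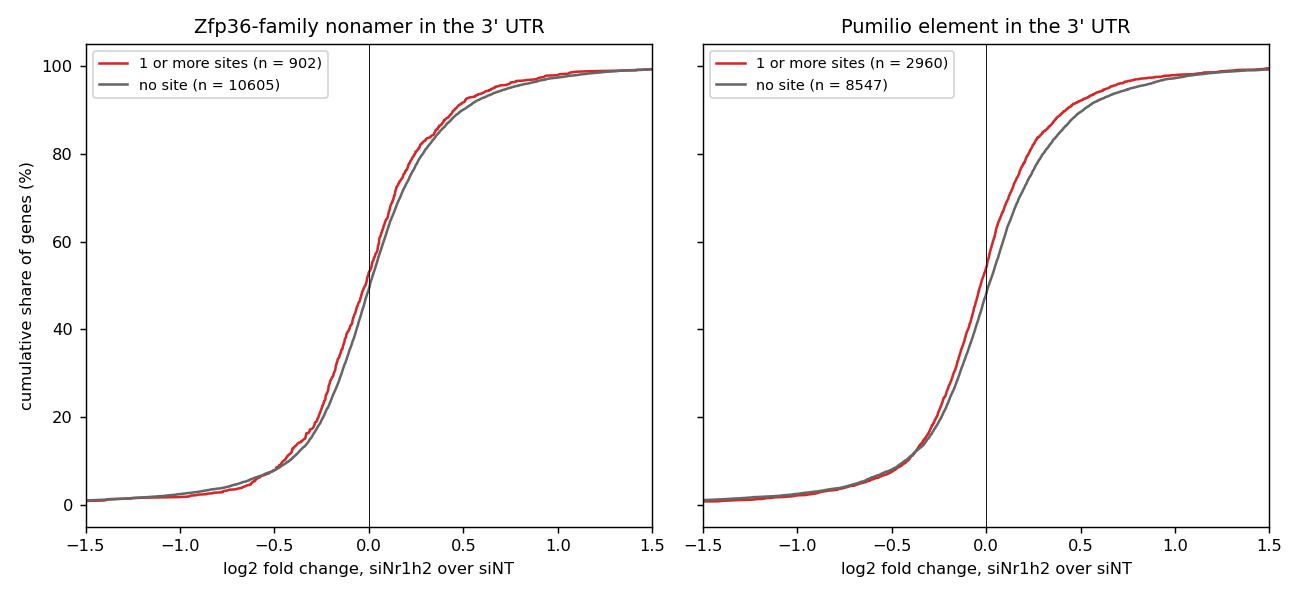
Cumulative share of genes (%) against the deposited log2 fold change of siNr1h2 over siNT, for genes with 1 or more sites (red) and genes with none (grey) in the 3′ untranslated region, for the AU-rich nonamer (left, 902 and 10605 genes) and the Pumilio element (right, 2960 and 8547 genes). The curves lie close together, with medians of -0.018 and 0.0049 on the left and -0.029 and 0.014 on the right.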

How the data were processed

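Per the labels' protocols, cDNA was made with SMART-Seq v4 and libraries with Nextera XT. The kit does not mark strand. DESeq2, edgeR, STAR, RSEM, Cufflinks 2.2.1 and HTSeq 0.12.4 and the mm9 build are named, without roles, per the submitters' processing notes. How reads matching several places were treated is not given in the sources used here, so genes with processed copies (Btg1, Zfp36l1 and Skiv2l) are uncertain. The authors' deposited table holds, per the file headers, a mean normalized count (a signal value, counts over size factors), a log2 fold change with its standard error, a Wald score, a p-value and an adjusted p-value per gene. The deposited score was the ratio of fold change to standard error, and the adjusted p the Benjamini-Hochberg value over 12069 of 13658 genes. The 1589 others had means up to 8.00. The table gives no value per sample, so the depth of each sample is unknown, no test was run again, and 0 per-sample columns were left out.

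Members and lists were chosen with earlier results of these data known. Members with an adjusted or unadjusted p under 0.05 are given with an interval and an adjusted p, except Zfp365, which has no interval. The smallest p of each group is given with an adjusted p, and the highest mean of a group in some cases only. The rest are given mostly by log2 fold change and standard error. A few details of other members (Tob1, Pum2, Pan2 and Pan3, Xrn1) were added after their values were seen. Values of 2 members are not reported here, though counts and medians include them. Intervals are 1.96 standard errors and cover the error the authors estimated. Lengths, base composition and 3′ untranslated regions are those of the longest coding GENCODE M21 transcript (GRCm38), matched by symbol for all 72 members and 95.7% of tested genes, and promoters from RefSeq (GRCm38.p6). Both builds differ from mm9, and their coordinates are not those of the authors' alignment. The calling step was run on simulated fold changes for this comparison (12069 genes, real standard errors). It recovered 55% of genes with a log2 change of 1 upward and 91% of those with 2 downward, with 3.31% false calls. The simulated noise was drawn from the deposited standard errors, so the run cannot show whether these are right. Python 3.11.15, pandas 2.3.3 and scipy 1.17.1 were used.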

Additional observations from a re-analysis of the deposited data

How the results depend on the processing

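No paired analysis was possible because the table holds no value per sample, and leaving out replicates was not run for the same reason. Btg1 and Zfp36l2 stayed called at a threshold of 0.01, with no low-count filter, with a mean of at least 50, under both centrings and with the trend over transcript length and GC content removed. A threshold of 0.1, a minimum change of 1.5 times and leaving out the 3 other zinc finger genes could not have ended these calls. Under Holm adjustment 1 member was called lower (48 lower and 1 higher over all genes). With a t distribution of 2 degrees of freedom 0 were called, members or genes, with a smallest adjusted p of 0.948, a threshold that so few degrees of freedom put out of reach. No alternative called a member higher. Centring on ribosomal protein genes called 4 members lower (454 lower and 36 higher genes), adding Cnot1 and Cnot8, and a threshold of 0.1 added Cnot1 (270 lower and 125 higher genes). A threshold of 0.01 gave 92 lower and 17 higher genes, and removal of the trend 117 lower genes. The median log2 fold change of the members ran from -0.18 (centred on ribosomal protein genes) to -0.029 (centred on genes with means of at least 500).

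Members near 0 changed sign and none of them passed. Centred on genes with means of at least 500, Lsm14a (0.017), Tnrc6c (0.017) and Xrn1 (0.029) lay above 0. Centred on ribosomal protein genes, Ago2 (-0.031), Cnot4 (-0.065), Dcp1a (-0.10), Dcps (-0.074), Exosc2 (-0.045), Exosc5 (-0.035), Smg1 (-0.077), Smg9 (-0.037), Tnrc6b (-0.093) and Upf3a (-0.0047) lay below 0. With the trend removed, Cnot6 (0.044), Cnot6l (0.011), Lsm14a (0.028) and Xrn1 (0.071) lay above 0 and Dcps (-0.0021), Exosc5 (-0.0016) and Smg9 (-0.091) below it. The cause was not tested. Precision differed with the count: the median standard error of the log2 fold change was 0.14 for members with means of at least 500 and 0.38 for those under 100.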
